A study of Drosophila melanogaster with 16 samples.

Results

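The constitutive Hsc70 and mitochondrial chaperones are the folding helpers that a fly cell makes without heat shock, and their transcripts were followed here in single flies exposed to chronic hypoxia (CH). The 9 genes were chosen by name, not by their values. They are the cytosolic cognate Hsc70-4 with its co-chaperone Hsp110, the cognates Hsc70-1 and Hsc70-2, the endoplasmic reticulum (ER) chaperones Hsc70-3 and Gp93, and the mitochondrial chaperones Hsc70-5, Hsp60A and Trap1. All 9 were measured, among 11983 genes that have a probe set of their own, by 11 of the 18952 probe sets of the array. Each gene is represented by its brightest probe set. The name Hsp60 was read as Hsp60A, since Hsp60B and Hsp60C carry it as a synonym too. Hsp70-type chaperones bind unfolded stretches of protein and release them in cycles of ATP hydrolysis, with J-domain proteins that start the cycle and exchange factors that reset it. Each compartment has its own form, and the mitochondrial form also pulls newly made proteins through the inner membrane and passes them to the Hsp60 chaperonin. Unlike the inducible heat shock genes, cognates such as Hsc70-4 are transcribed at a high level in unstressed cells.

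Transcripts of 16 whole flies were measured on Affymetrix Drosophila Genome 2.0 arrays, with 1 fly per array and 4 flies in each of 4 groups. CH-dmDys flies carried an RNA interference construct against the C-terminus of dystrophin (UASdmDysC-term), driven in all tissues by P-tub-Gal4, and spent 2 weeks in hypobaric hypoxia during a 16-day ascent to 6194 m, at oxygen levels of 16.3% down to 9.9%. Normoxic dmDys flies were of the same genotype and were kept in normoxia for 2 weeks. CH-WT flies, wild type by the labels, were exposed for 2 weeks to the same oxygen levels in a chamber at normal pressure, and normoxic WT flies, also wild type by the labels, were kept in normoxia for 2 weeks. By the methods, flies with the P-tub-Gal4 driver served as controls for gene expression, so WT flies would carry the driver without the interference construct. The labels give all flies as adults of 3 to 5 days. CH-dmDys and CH-WT flies therefore differed in the kind of hypoxia as well as in genotype, and these cannot be told apart. The sources do not say whether the flies of a group came from separate vials or crosses, so p-values measure the spread between these flies.

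Values are log2 of the deposited intensity, and a level is not compared between genes because each probe set binds differently. The arrays of the 2 genotypes appear to have been normalized separately, with upper quartiles of 10.18 to 10.28 in dmDys flies and 8.99 to 9.09 in WT flies, so CH is described within a genotype first. The brightest probe set of Dys, the dystrophin gene, read 5.89 to 9.62 in normoxic dmDys flies and 7.67 to 9.82 in normoxic WT flies as deposited, and the groups overlapped. Markers of the testis (25 genes) had a median of 13.02 to 14.16 in 14 flies, but of 2.34 in CH-WT replicate 7 and 2.23 in normoxic WT replicate 5. Markers of the male accessory gland were bright in every fly, at a median of 13.34 to 14.68. The median of the 13 egg and yolk markers lay at the floor, at 2.08 to 2.19. However, grk among them had a mean log2 level of 8.47 over the 16 arrays. The 3' minus 5' log2 difference of 3 control transcripts (Act5C, eIF-4a and Gapdh), which grows as less of a transcript's length is recovered, averaged 4.38 ± 0.58 in CH-dmDys and 9.10 ± 1.46 in normoxic dmDys flies (SD, n = 4 each; two-sided exact permutation p = 0.0286, the smallest for 4 against 4). In WT flies it averaged 6.26 ± 0.83 under CH and 7.11 ± 0.23 in room air (SD, n = 4 each; exact permutation p = 0.0286), and with other probe sets of the same transcripts the WT difference had p = 0.314 by the exact permutation test.

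**Figure D1:**
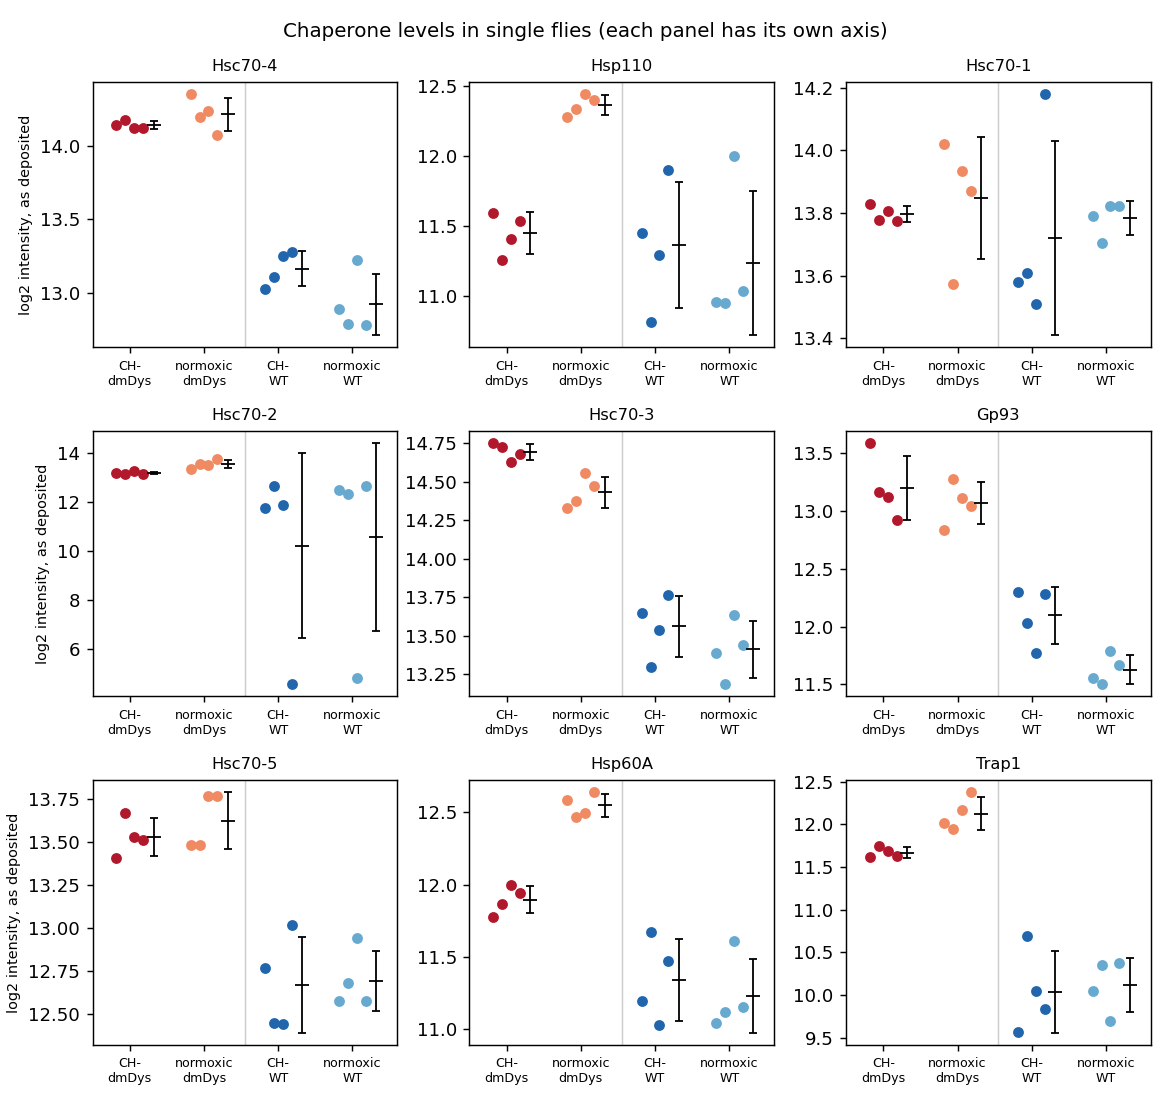
Log2 intensity, as deposited, of the 9 chaperone genes in single flies, with points for flies and black bars for the mean ± SD of each group of 4. Hsp110, Hsp60A, Trap1 and Hsc70-2 were lower in every CH-dmDys fly than in every normoxic dmDys fly, Hsc70-3 was higher, and Hsc70-2 read 4.56 and 4.80 in a pair of WT flies.

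Chronic hypoxia in dmDys flies went with less transcript of Hsp110 and of the mitochondrial chaperones Hsp60A and Trap1, slightly less Hsc70-2 and slightly more Hsc70-3, while the tests of Hsc70-1, Hsc70-4, Hsc70-5 and Gp93 did not pass. Of the 9 genes, 5 passed an adjusted p of 0.05 in limma, 4 lower and 1 higher. Over all 18907 tested probe sets 20.2% passed (10.6% lower and 9.62% higher). That share takes in dim probe sets, whereas the 9 genes had mean log2 levels of 10.99 to 14.03. None of the 9 also reached a 2-fold change, which 9.53% of all probe sets did. In these 5 genes the CH-dmDys and normoxic dmDys flies did not overlap, as in 29.1% of all probe sets. The median log2 difference of the 9 genes was -0.09, against -0.03 over the 8145 probe sets with a mean log2 level above 6.

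Among the cytosolic chaperones, Hsp110 had the largest change of the 9 genes. Hsp110 is the exchange factor that lets Hsp70 release ADP and its client. Its log2 level was 11.60, 11.25, 11.41 and 11.53 in the CH-dmDys flies, against 12.28, 12.34, 12.44 and 12.40 in the normoxic dmDys flies. The groups were well apart, and Hsp110 fell by a log2 difference of -0.92 (SE 0.081), 1.89-fold lower under CH (limma adjusted p = 0.00183). Quantile normalization over all arrays gave -1.04, past the 2-fold line. Hsp110 passed with each of the 8 flies left out in turn, at adjusted p from 0.00301 to 0.0101.

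Hsc70-4, the main cytosolic Hsp70 cognate, which also strips clathrin from vesicles, did not pass on the deposited values. It read 14.14, 14.18, 14.12 and 14.12 in CH-dmDys flies and 14.35, 14.19, 14.24 and 14.07 in normoxic dmDys flies, and the groups overlapped. The log2 difference was -0.07 (SE 0.057, limma adjusted p = 0.513). It was -0.18 with quantile normalization (adjusted p = 0.0941) and passed, at -0.15 (adjusted p = 0.0493), with the arrays centred on their medians.

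Hsc70-2, a further Hsp70 cognate, read 13.19, 13.14, 13.26 and 13.14 in CH-dmDys flies and 13.35, 13.54, 13.49 and 13.74 in normoxic dmDys flies. Every CH-dmDys fly lay below every normoxic dmDys fly, and Hsc70-2 fell by a log2 difference of -0.35 (SE 0.084, limma adjusted p = 0.0342). Dropping any one CH-dmDys fly, or normoxic dmDys replicate 7 or 8, took the adjusted p to between 0.0572 and 0.0918. Of the 25 testis markers, 9 were lower and 2 higher by the same test, where 10.6% and 9.62% of all probe sets were. Their median log2 difference was -0.12, and their part in the Hsc70-2 result was not tested.

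Hsc70-1, another cognate, has 3 probe sets, and they disagreed. The brightest read 13.77 to 13.83 in CH-dmDys and 13.57 to 14.02 in normoxic dmDys flies, and overlapped, with a log2 difference of -0.05 (SE 0.095, limma adjusted p = 1.00). The middle one differed by 0.16 (SE 0.18), and its normoxic dmDys replicate 7 stood apart at 13.03. The dimmest, whose identifier marks its probes as matching several transcripts (as it does for Hsc70-3, Hsc70-4, Hsp110 and Hsp60A), read 11.92, 12.14, 12.09 and 12.02 in CH-dmDys flies and 12.60, 12.50, 12.46 and 12.72 in normoxic dmDys flies. There the groups did not overlap, and its signal fell by -0.52 (SE 0.073, limma adjusted p = 0.00625), with adjusted p from 0.00633 to 0.0232 as each fly was left out.

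**Figure D2:**
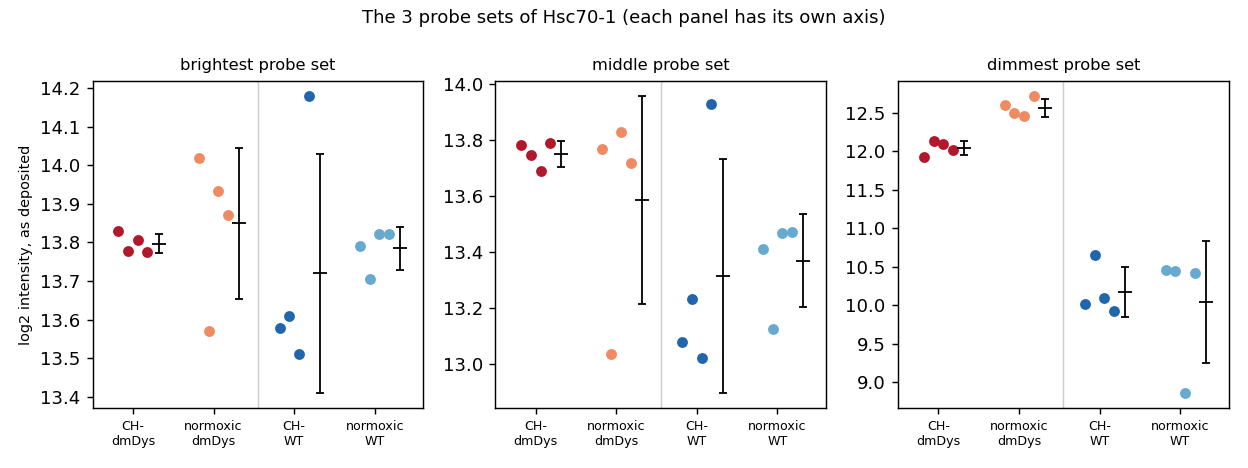
Log2 intensity, as deposited, of the 3 probe sets of Hsc70-1 in single flies (points) with the mean ± SD of each group of 4 (black). Only the dimmest separates CH-dmDys from normoxic dmDys flies, with a log2 difference of -0.52, while the other 2 overlap.

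In the ER, Hsc70-3, the fly BiP, rose while Gp93 did not pass. BiP binds proteins as they enter the ER and holds the stress sensors of that compartment inactive. Hsc70-3 read 14.75, 14.72, 14.63 and 14.68 in CH-dmDys flies and 14.33, 14.38, 14.55 and 14.47 in normoxic dmDys flies, with no overlap. It was higher under CH by a log2 difference of 0.26 (SE 0.055, limma adjusted p = 0.0212), which is 1.20-fold. Dropping normoxic dmDys replicate 7, or any CH-dmDys fly but replicate 7, took the adjusted p to between 0.0541 and 0.0609. Gp93, the Hsp90 of the ER, read 13.59, 13.17, 13.12 and 12.92 in CH-dmDys flies and 12.83, 13.28, 13.12 and 13.05 in normoxic dmDys flies. The groups overlapped, with CH-dmDys replicate 5 above every normoxic dmDys fly, and the log2 difference was 0.13 (SE 0.16, limma adjusted p = 0.803).

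Other genes of ER folding and the unfolded protein response were mostly higher where they passed. Of 21 measured genes, 5 rose and 1 fell, where 9.62% of all probe sets rose and 10.6% fell. The median log2 difference of the 21 was 0.19. The highest was Grp170, the ER relative of Hsp110, at 1.33 (SE 0.35, limma adjusted p = 0.0434). The others that rose were Sec63 (0.82) and Sec61alpha (0.37), parts of the channel through which proteins enter the ER, Der-2 (0.71), of the export of misfolded proteins, and the disulphide isomerase CaBP1 (0.67). PEK, the kinase that slows translation in ER stress, fell by -1.01 (SE 0.22, limma adjusted p = 0.024). Hsp110 and its ER relative Grp170 thus passed in opposite directions in the same flies.

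In the mitochondria, Hsp60A and Trap1 fell and Hsc70-5 did not pass. Hsp60A forms the chamber in which imported proteins fold. It read 11.78, 11.86, 12.00 and 11.94 in CH-dmDys flies, against 12.59, 12.47, 12.49 and 12.64 in normoxic dmDys flies. The groups lay well apart, and Hsp60A fell by a log2 difference of -0.65 (SE 0.061), 1.57-fold lower under CH (limma adjusted p = 0.00219). It passed with each fly left out in turn, at adjusted p from 0.00296 to 0.01.

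Trap1, the mitochondrial Hsp90, read 11.62, 11.75, 11.68 and 11.63 in CH-dmDys flies, against 12.02, 11.94, 12.17 and 12.38 in normoxic dmDys flies. It fell by -0.46 (SE 0.099, limma adjusted p = 0.023), with no overlap. Dropping CH-dmDys replicate 5, 7 or 8 took the adjusted p to between 0.0588 and 0.067. Hsc70-5, the mitochondrial Hsp70 that drives import, read 13.40, 13.67, 13.53 and 13.51 in CH-dmDys flies and 13.48, 13.48, 13.77 and 13.77 in normoxic dmDys flies. These overlapped, and the log2 difference was -0.09 (SE 0.097, limma adjusted p = 0.674).

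Of 30 other genes of mitochondrial import and protein quality control, 11 fell, 1 rose and 18 did not pass, with a median log2 difference of -0.17. Over all probe sets 10.6% fell and 9.62% rose, which also holds beside the counts that follow. Past the 2-fold line was the import channel gene Tim17b1, at -1.27 (SE 0.18, limma adjusted p = 0.00668). So was Spg7, a protease subunit of the inner membrane, at -1.06 (SE 0.086, limma adjusted p = 0.00144). Tim17b1 read 2.17 and 2.43 in the 2 WT flies with low testis markers, against 7.35 to 9.51 in the other WT flies. Of the 30 genes, 22 lay below the other WT flies in both, and 4 lay above. The part of testis transcripts in these falls was not tested. The 1 that rose was Tim23, the channel itself, at 0.20 (SE 0.037). Of 14 cytosolic partners of Hsp70, 6 fell and 0 rose, with a median of -0.31. The 2 past the 2-fold line were starvin (stv), a BAG-domain exchange factor, at -1.67 (SE 0.066, limma adjusted p = 0.000129), and the J-domain protein DnaJ-1, at -1.58 (SE 0.077, limma adjusted p = 0.000214). Of 12 inducible heat shock genes listed, 3 had a probe set annotated to 1 symbol alone and were followed. These, Hsp26, Hsp27 and Hsp68, were lower by -3.61, -2.50 and -4.62, larger in size than any member's difference. The others, among them Hsp22, Hsp23 and the Hsp70 copies, were left out by that annotation rule, although the paper reports array probe sets for several of them. Of 8 muscle genes, 4 fell and 0 rose, and their median level was 12.95 to 13.23 in CH-dmDys flies and 12.80 to 13.55 in normoxic dmDys flies; their part in these results was not tested.

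**Figure D3:**
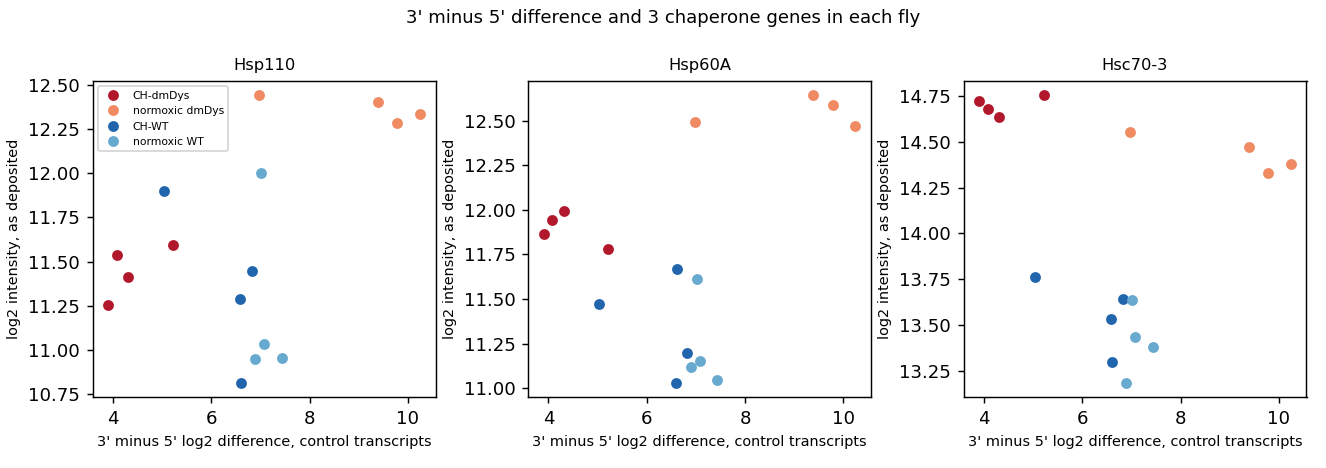
Log2 intensity, as deposited, of Hsp110, Hsp60A and Hsc70-3 in each fly against the 3' minus 5' log2 difference of the control transcripts. Normoxic dmDys replicate 8 lies between the other dmDys flies on the horizontal axis, at 6.98. Its Hsp110, at 12.44, was the highest of its group and its Hsp60A, at 12.49, lay within the range of its group. Its Hsc70-3, at 14.55, was the highest of its group and the nearest to the CH-dmDys flies. The values of this single fly cannot tell CH from the 3' minus 5' difference.

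The 3' minus 5' difference moved with CH in the same dmDys flies. It was 3.90 to 5.21 in CH-dmDys and 6.98 to 10.25 in normoxic dmDys flies, without overlap, so a covariate fit cannot separate it from CH. With it as a covariate, 0 of the 9 genes passed in limma and 11 of all probe sets did; 107 did with the other control probe sets, again with 0 of the 9. The log2 differences of Hsp110 and Hsp60A were then -0.95 (adjusted p = 0.371) and -0.67 (adjusted p = 0.414), while that of Hsc70-3 was 0.05 and that of Trap1 -0.70. Normoxic dmDys replicate 8 had the lowest 3' minus 5' difference of its group, 6.98 against 9.39 to 10.25 in the other normoxic dmDys flies. Its Hsp110 read 12.44, the highest of its group, and its Hsp60A 12.49, within the range of its group. Its Hsc70-3, at 14.55, was the highest of its group and the nearest to the CH-dmDys flies. This is 1 fly, singled out after its values were seen, and its 6.98 lay above every CH-dmDys fly. Its values therefore cannot tell CH from the 3' minus 5' difference for any of these genes.

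Chronic hypoxia in WT flies, in the chamber, gave no passing test for any of the 9 genes. Over the whole array 0 of 18907 probe sets (0%) passed in limma, and 232 (1.23%) had an unadjusted p under 0.05, among them 1 of the 9, Gp93. Gp93 read 12.30, 12.03, 11.77 and 12.28 in CH-WT flies, against 11.55, 11.51, 11.79 and 11.67 in normoxic WT flies. The highest normoxic WT fly lay just inside the CH-WT range, and the log2 difference was 0.47 (SE 0.13, limma adjusted p = 1.00). Hsc70-4 read 13.02, 13.11, 13.25 and 13.28 in CH-WT flies and 12.89, 12.79, 13.23 and 12.78 in normoxic WT flies, a log2 difference of 0.24 (SE 0.12, limma adjusted p = 1.00) with overlap in 1 normoxic WT fly.

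Hsp110, Hsp60A and Trap1, which fell in dmDys flies, had WT differences smaller than their SE. Hsc70-2, which also fell there, differed by -0.35 (SE 2.61) in WT flies and is described below. Hsp110 read 11.45, 10.81, 11.29 and 11.90 in CH-WT flies and 10.95, 10.95, 12.00 and 11.03 in normoxic WT flies. The highest fly of each group was one of the pair with low testis markers, and the log2 difference was 0.13 (SE 0.33). Hsp60A read 11.20, 11.67, 11.03 and 11.47 in CH-WT flies and 11.04, 11.12, 11.61 and 11.15 in normoxic WT flies, a difference of 0.11 (SE 0.19). Trap1 differed by -0.08 (SE 0.28), Hsc70-3 by 0.15 (SE 0.13), Hsc70-5 by -0.02 (SE 0.16) and Hsc70-1 by -0.07 (SE 0.15). In none of the 9 genes were the groups apart, as they were in 0.873% of all probe sets. Leaving Hsc70-2 aside, the standard errors of these 6 genes were 0.13 to 0.33 in WT flies, wider than their 0.055 to 0.099 in dmDys flies.

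**Figure D4:**
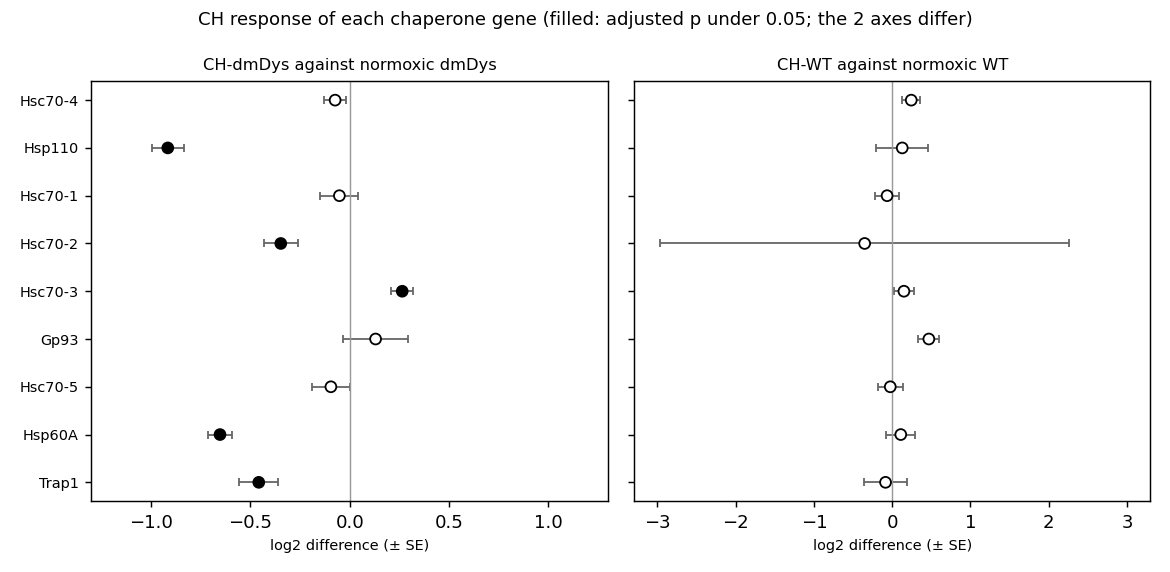
Log2 difference ± SE of each chaperone gene, CH-dmDys against normoxic dmDys flies on the left and CH-WT against normoxic WT flies on the right, with separate horizontal axes. Filled points passed an adjusted p of 0.05 in limma; 5 genes are filled in dmDys flies and 0 in WT flies, where Hsc70-2 has an SE of 2.61.

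In WT flies Hsc70-2 was low in 1 CH-WT and 1 normoxic WT fly. It read 4.56 in CH-WT replicate 7 and 4.80 in normoxic WT replicate 5, the pair whose testis markers had medians near 2, and 11.75 to 12.66 in the other 6 WT flies. Both levels lay far below those of the other flies of their group. Whole-fly RNA does not tell fewer cells of a type from less RNA per cell. With both flies left out, the CH difference of Hsc70-2 was -0.39 (SE 0.29, limma adjusted p = 0.911), against -0.35 (SE 2.61) with all 8 WT flies.

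Other genes of the family split in the same pair of flies. The Hsp60A paralogues Hsp60B, Hsp60C and Hsp60D read 2.10 to 2.47 in the pair and 9.32 to 12.75 in the other 6 WT flies, whereas Hsp60A itself read 11.47 and 11.61, inside the range of 11.03 to 11.67. Hsp110 was above the other 6 (10.81 to 11.45), at 11.90 and 12.00, and Hsc70-5 was above them (12.44 to 12.77), at 13.02 and 12.94. Of the 30 genes of mitochondrial import and quality control, 22 were below the range of the other 6 WT flies in both of the pair. Of the rest, 4 were above it (Lon, Tim17b, Tom40 and ttm50) and 4 were neither. How many of all probe sets lay below was not counted, so the 22 cannot be called particular to this list. The median over the whole array was also lower in the pair, at 2.87 and 3.02, against 3.49 to 3.61 in the other WT flies. In the lists of ER, mitochondrial and cytosolic partners 0 genes passed in the WT comparison. With both flies left out, 0 of the 9 genes passed in the WT comparison, and the differences of Gp93 and Hsc70-4 were 0.46 and 0.31.

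**Figure D5:**
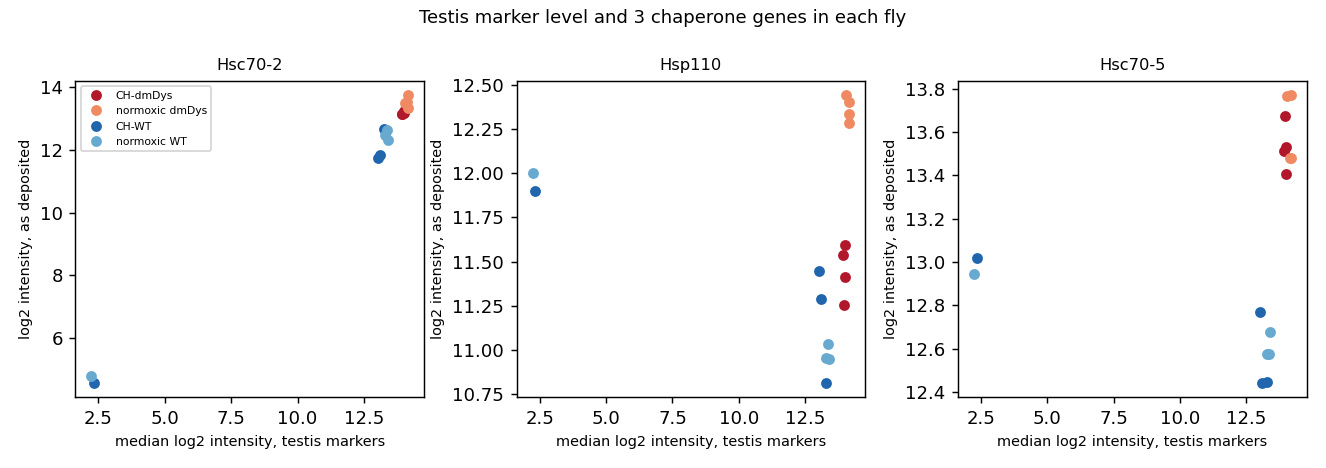
Log2 intensity, as deposited, of Hsc70-2, Hsp110 and Hsc70-5 against the median log2 intensity of 25 testis markers, 1 point per fly. CH-WT replicate 7 and normoxic WT replicate 5 lie at 2.34 and 2.23 on the horizontal axis, with Hsc70-2 at 4.56 and 4.80 and with Hsp110 and Hsc70-5 above the other WT flies.

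The difference between the CH responses of dmDys and WT flies was tested directly as an interaction over all 16 flies. The 3' minus 5' difference of the control transcripts moved by -4.72 with CH in dmDys flies and by -0.85 in WT flies. Its part in the interaction was not tested. None of the 9 genes passed, where 1.03% of all probe sets did, and 0.894% also reached a 2-fold difference. The unadjusted p was under 0.05 for 3 of the 9, where 8.13% of all probe sets had one. These were Hsp60A, with an interaction of -0.76 (SE 0.20, adjusted p = 0.118), Hsp110, with -1.04 (SE 0.35, adjusted p = 0.278), and Hsc70-4, with -0.32 (SE 0.13, adjusted p = 0.511). Each was more negative in dmDys flies.

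Leaving out the pair of WT flies with low testis markers changed this. Then 3 of the 9 passed in limma, against 4.83% of all probe sets, with Hsp110 at -1.12 (SE 0.18, adjusted p = 0.00772), Hsp60A at -0.85 (SE 0.18, adjusted p = 0.0229) and Hsc70-4 at -0.38 (SE 0.092, adjusted p = 0.0422). Leaving out normoxic WT replicate 5 alone gave the same 3, at limma adjusted p from 0.0207 to 0.0466. Leaving out CH-WT replicate 7 alone gave 0. The share of all probe sets that passed is not given for these single-fly fits. Hsp110 read 12.00 in normoxic WT replicate 5, against 10.95 to 11.03 in the other normoxic WT flies. Leaving that fly out therefore also lowers the WT baseline of Hsp110. With all 16 flies, where 1.03% of all probe sets passed, 2 of the 14 cytosolic partners did. They were DnaJ-1 at -2.33 (SE 0.16, limma adjusted p = 4.13e-06) and stv at -2.37 (SE 0.28, limma adjusted p = 0.001). In the WT comparison itself these 2 stood at 0.75 (SE 0.14) and 0.70 (SE 0.27) and did not pass. For the ER and mitochondrial lists 0 genes passed, with 2 of 21 and 1 of 30 at an unadjusted p under 0.05, where 8.13% of all probe sets had one.

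Without hypoxia, the 2 genotypes were compared after quantile normalization over all 16 arrays. The 3' minus 5' difference of the control transcripts averaged 9.10 in normoxic dmDys and 7.11 in normoxic WT flies. Its part in this comparison was not tested. Normoxic dmDys flies had more Trap1, Hsc70-4, Gp93 and Hsc70-3 transcript than normoxic WT flies and less signal on the brightest probe set of Hsc70-1, which differed by 0.06 in the other direction as deposited. These 5 of the 9 genes passed in limma, 4 higher and 1 lower, where 18.1% of all probe sets did (6.75% higher and 11.3% lower). None also reached a 2-fold difference, which 8.07% of all probe sets did. The 5 genes did not overlap between the groups, but neither did 54.9% of all probe sets.

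Trap1 read 11.54, 11.44, 11.65 and 11.91 in normoxic dmDys flies and 10.62, 10.91, 10.31 and 10.91 in normoxic WT flies on this scale. The groups were apart, with a log2 difference of 0.94 (SE 0.17, limma adjusted p = 0.0136), 1.92-fold, and it passed with each fly left out. Hsc70-4 read 14.07, 13.92, 13.86 and 13.76 in normoxic dmDys flies and 13.29, 13.20, 13.65 and 13.16 in normoxic WT flies, a difference of 0.58 (SE 0.12, limma adjusted p = 0.0241). Gp93 read 12.42, 12.93, 12.66 and 12.63 in normoxic dmDys flies and 12.04, 12.00, 12.27 and 12.10 in normoxic WT flies, a difference of 0.55 (SE 0.12, limma adjusted p = 0.022). Hsc70-3 differed by 0.37 (SE 0.089, limma adjusted p = 0.0341).

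The last 3 did not pass when certain single flies were left out. Hsc70-3 no longer passed without any one fly other than normoxic WT replicate 5 (adjusted p from 0.0567 to 0.101). Hsc70-4 did not pass without normoxic dmDys replicate 6, 7 or 8, or normoxic WT replicate 2, 3 or 6 (0.0618 to 0.0714). The same held for Gp93 without normoxic dmDys replicate 8 or 10 or normoxic WT replicate 2, 3 or 6 (0.0586 to 0.0672). Without normoxic WT replicate 5, 7 of the 9 genes passed, as did 44.9% of all probe sets, with Hsp110 at 0.39 (adjusted p = 0.000603) and Hsp60A at 0.48 (adjusted p = 0.00191) added to the 5. Array weights also brought both past the test, at 0.37 and 0.50. With all flies those 2 stood at 0.15 (SE 0.24) and 0.36 (SE 0.13).

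The probe sets of Hsc70-1 disagreed between genotypes too. The brightest read 13.69, 13.23, 13.53 and 13.51 in normoxic dmDys flies and 14.15, 14.05, 14.14 and 14.16 in normoxic WT flies after quantile normalization, a log2 difference of -0.63 (SE 0.097, limma adjusted p = 0.00746). The middle one stood at -0.54 (SE 0.20, limma adjusted p = 0.123). The dimmest went the other way, at 1.49 (SE 0.37, limma adjusted p = 0.0378). Its normoxic WT replicate 5 read 9.52, against 10.96 to 11.03 in the other normoxic WT flies; without that fly its difference was 1.12 (adjusted p = 0.000343), while dropping any other single fly took the adjusted p to between 0.0655 and 0.108.

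The scaling of the arrays changed this comparison. As deposited, 6 of the 9 genes were called and the difference of the brightest Hsc70-1 probe set was 0.06 (SE 0.098). But the 8145 probe sets with a mean log2 level above 6 then had a median difference of 1.02, against 0.04 after quantile normalization. The share of all probe sets called as deposited is not given here, so the 6 cannot be weighed against it. On the deposited scale Trap1 stood at 2.01, Gp93 at 1.44, Hsp60A at 1.32, Hsc70-4 at 1.29, Hsp110 at 1.13 and Hsc70-3 at 1.02, the last at the level of that median. Of 8 muscle genes, 7 were lower in normoxic dmDys flies after quantile normalization, where 11.3% of all probe sets were, with a median of -0.95. The testis markers had a median of 2.79 with normoxic WT replicate 5 included. The part of either set in the chaperone differences was not tested. The control flies of this comparison also serve the CH comparisons above.

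Among the partners, 4 of 21 ER genes were higher and 0 lower in normoxic dmDys flies, where 6.75% of all probe sets were higher and 11.3% lower. Past the 2-fold line were Hrd3 at 2.14 (SE 0.27, limma adjusted p = 0.00392) and sip3 at 1.34 (SE 0.36), which only just passed (limma adjusted p = 0.0495). Both are of the ubiquitin ligase that clears misfolded ER proteins. The stress sensor Ire1 was also past that line, at 2.07 (SE 0.11). The other was the disulphide isomerase ERp60, at 0.37. Ire1 was dim, at a mean log2 level of 4.60 in normoxic dmDys flies and 2.53 in normoxic WT flies. Of 30 mitochondrial genes 2 were higher, a share near that of all probe sets. They were ttm50 at 1.99 (SE 0.40) and CG11267, a relative of the Hsp10 lid of the mammalian chaperonin, at 0.57 (SE 0.097). Of 14 cytosolic partners 2 were higher, stv at 1.11 (SE 0.20) and DnaJ-1 at 0.90 (SE 0.070).

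The transcripts that varied most like 4 of the chaperones were found by Pearson correlation over the 16 flies, with each gene centred on the mean of its genotype, among 7222 annotated probe sets with a mean log2 level above 6. For Hsc70-3 they were Syb (r = 0.95), RpL27 (0.94) and Srp68 (0.92), of vesicle fusion, the ribosome and the signal recognition particle. Hsc70-4 was closest to CG44251 (0.87), the chaperonin subunit CCT7 (0.86) and Pdk (0.86), a kinase of pyruvate dehydrogenase. Hsc70-5 was closest to the glycolytic enzyme gene Pgk (0.90), tst (0.89) and mEFTu1 (0.89), a mitochondrial elongation factor. For Hsp60A they were 4E-T (0.92), CG8860 (0.89) and Rtca (0.89). These are descriptions over 16 flies that share their libraries, the difference in control transcripts and the pair of flies with low testis markers.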

How the data were processed

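Groups follow the sample titles; some other labels conflict with them. The source names of all 4 normoxic dmDys flies contain CH beside the word normoxic. The strain of CH-WT replicate 3 is given as dmDys, CH-WT replicate 5 has the sample number 3, and CH-dmDys replicate 5 has no strain. The authors computed probe set intensity with GCRMA in GeneSpring after amplification from the 3' end, and the deposited intensity is linear, with 1 column per fly. Values were used as log2 without adding a constant. The array has 18952 probe sets; 45 are hybridization controls and were not tested. A symbol was given to 13647 probe sets, several to 402 and none to 4903.

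Each comparison was fitted on its own 8 arrays with limma 3.58.1 in R 4.3.3 (lmFit, eBayes), the interaction on 16, and the genotypes after quantile normalization over 16, with Benjamini-Hochberg adjustment over 18907 probe sets. "Passed" means an adjusted p under 0.05 and "called" also a 2-fold change (1 on the log2 scale) or more. The methods name SAM, which was not run here. The genes and lists were chosen with earlier results of these data known. Named genes are the 9 members, Dys, up to 3 called genes of each partner list with the smallest p, those behind counts of 5 or fewer, and the 3 most correlated genes of 4 members; Hsp60B, Hsp60C and Hsp60D and the comparison of normoxic dmDys replicate 8 were singled out after their values were seen. Which control probe sets gave the 3' minus 5' difference was chosen among several. The fits were tested on simulated data. Alternatives covered scaling, probe set choice, low values, moderation, weights, covariates, pairing and each fly left out. No sequences are shown. The number of arrays limits the precision.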

Additional observations from a re-analysis of the deposited data

Results flagged for a closer look

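In 6 of the 44 combinations of probe set and group 1 fly lay far from the other 3 by Dixon's gap test, which chance alone gives in about 1 in 20 groups. For Hsc70-2, CH-WT replicate 7 read 4.56, against 11.75 to 12.66 in the other CH-WT flies, and normoxic WT replicate 5 read 4.80, against 12.31 to 12.63. For Hsp110, normoxic WT replicate 5 read 12.00, against 10.95 to 11.03. For Hsc70-1, CH-WT replicate 7 read 14.18 on its brightest probe set, against 13.51 to 13.61, and normoxic WT replicate 5 read 8.86 on the dimmest, against 10.42 to 10.46. These 5 values belong to the pair of WT flies whose testis markers were near the floor. The other was the middle probe set of Hsc70-1 in normoxic dmDys replicate 7, at 13.03 against 13.72 to 13.83. None of the 9 genes passed the test of a difference between the CH responses.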

How the results depend on the processing

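In dmDys flies 0 of the 9 genes were called, against 1 (Hsp110) with quantile normalization, 1 with treat at a log2 difference of 0.5 and 5 with no fold threshold. Of the 5 that passed there, 2 (Hsp110 and Hsp60A) did so in 1 fit over all 16 arrays. With the arrays centred on their medians Hsc70-4 passed too. In WT flies 0 were called under every alternative run. Between genotypes 0 were called, against 6 as deposited and 5 with no fold threshold. It was 0 to 1 with each fly left out (1 without normoxic dmDys replicate 7 or normoxic WT replicate 3 or 6). The deposited scale carries the median shift of 1.02 given above, and the 6 are not set against a share of all probe sets. For the interaction 0 were called, against 1 without both WT flies with low testis markers, and 0 to 1 with each fly left out (1 without normoxic WT replicate 5). Whether the numbers of the flies pair them cannot be told from so few shared numbers. The r of same-numbered deviations from the group means ran from -0.26 to 0.11 in dmDys and from -0.92 to 0.73 in WT flies. The WT means include the flies with low testis markers. The same-numbered fly was the closest match for number 8 in dmDys and number 3 in WT flies, and for no other number. With a replicate block on the shared numbers 0 of the 9 passed in dmDys flies and 29 probe sets in all, against 2 and 1450 for the same flies with no block; in WT flies 0 passed with and without the block.

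Signs turned only in differences that did not pass, apart from Hsc70-1 between genotypes, which was 0.0644 as deposited and 0.1054 with probe sets averaged. In dmDys flies Gp93 was -0.0012 with array weights and -0.0067 with the replicate block and without it in the same flies. In WT flies Hsc70-1 was 0.0020 with probe sets averaged. Hsc70-2 there was 3.44 with the 3' to 5' covariate and 2.17 with the block and in the same flies, Hsp110 -0.23 and -0.14, and Hsp60A -0.0032 with the covariate. In the interaction Hsc70-1 was -0.0738 with quantile normalization, -0.0533 with centring and -0.1387 with probe sets averaged, and Hsc70-2 -0.2070 and -0.0615 with quantile normalization and centring. With each fly left out, the range was -0.14 to 0.0045 for Hsc70-1 in dmDys flies. In WT flies it was -0.22 to 0.0047 for Hsc70-1, -2.27 to 1.53 for Hsc70-2, -0.14 to 0.0591 for Hsc70-5, -0.0513 to 0.384 for Hsp110, -0.0002 to 0.24 for Hsp60A and -0.30 to 0.0709 for Trap1. In the interaction it was -0.0795 to 0.1662 for Hsc70-1, -1.88 to 1.92 for Hsc70-2 and -0.15 to 0.0455 for Hsc70-5. The cause was not tested.

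The 3' minus 5' difference was -4.72 in dmDys flies, -4.19 with other control probe sets and -5.43 to -4.34 with each fly left out. In WT flies it was -0.85, against -0.49 (exact permutation p = 0.314) and -1.03 to -0.44. With 3 flies against 4 the smallest exact p is 0.0571. The other control probe sets, the fit without the block and leaving out flies for this measure were added after seeing the data.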
